A study of Polistes fuscatus with 17 samples.

Results

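This account covers the brains of 9 foundresses of the paper wasp Polistes fuscatus, out of 17 wasps in the series: 5 foundresses trained to faces and 4 foundresses trained to patterns. The wasps were chosen by the training named in the library titles, without any measured value. F17 was left out of a second fit because its profile was already known to stand apart, so its distance from the others is a description. Foundresses are the females that start nests in spring, and each library is the brain of 1 adult female taken from nests in Ann Arbor, Michigan. Each wasp had 40 trials in a T-shaped maze with negative reinforcement, with either conspecific faces or simple patterns as the stimulus, and was frozen 30 minutes after the last trial. The 5 face-trained wasps (F25, F29, F35, F42 and F55) were collected in May. Of the pattern-trained wasps, F17 and F3 were collected in May and F34 and F52 in June. The labels give no nest of origin, no learning score and no untrained foundress, so both groups share the handling, the maze and the reinforcement. The 8 workers of the series, collected in July and August, were all trained to faces after living on foreign nests, 4 on nests of their own species and 4 on nests of Polistes metricus. They serve below as levels from another caste, in the scaling of CPM values and in an alternative fit.

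P. fuscatus is known for telling nestmates apart by their variable facial markings, and the comparison asks which brain transcripts go with learning faces rather than another visual stimulus. In insects, visual input is processed in the optic lobes, and the mushroom bodies take part in associative learning. Changes in transcription after training are known to include fast, short-lived activation of immediate early genes and slower changes in synaptic and metabolic genes. A whole-brain library averages over these regions, so fewer cells of a type and less RNA per cell cannot be told apart in it. The count table gives 157691 assembled contigs by identifier only. The gene table for the species has 13634 entries and matched 0 of the identifiers, so no gene or gene group could be named, and no marker of brain or of another tissue could be checked. A contig is an assembled piece of transcript, and several can come from 1 gene.

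Total counts were 14118986, 20360420, 17424180, 17305103 and 17165294 in face-trained F25, F29, F35, F42 and F55, against 15247636, 7694420, 14911820 and 15847028 in pattern-trained F17, F3, F34 and F52. The groups overlapped, with F3 far below the rest. In mega-counts (M), means were 17.3 ± 2.21 M with faces (SD, n = 5) and 13.4 ± 3.84 M with patterns (n = 4). By an exact two-sided permutation test p was 0.0476, and 0.214 when adjusted over the 12 tests of library values given below. Without F17 the pattern mean was 12.8 ± 4.46 M (n = 3; exact permutation test, p = 0.0536, adjusted p = 0.214).

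Brains did not sort by training in the correlations of their contig profiles. Across the contigs tested, Pearson correlations of log2 CPM (counts per mega-count of the scaled library) ran from 0.936 to 0.970 (median 0.962) over the 10 pairs of face-trained wasps, against 0.856 to 0.961 (median 0.906) over the 6 pairs of pattern-trained wasps. Pairs of 1 face-trained and 1 pattern-trained wasp ran from 0.879 to 0.969 (median 0.949, 20 pairs). With F17 left out, the median was 0.962 among face-trained wasps, 0.944 among the 3 remaining pattern-trained wasps and 0.956 across training. The most alike wasp had the other training for F25 and F52, which were each other's closest at 0.969, and for F34, closest to F29 at 0.962. F17 was closest to face-trained F35, at only 0.898.

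F17 was the wasp least like the others. Its median correlation with the other foundresses was 0.879, against 0.945 to 0.962 for the other 8. The mean of this value was 0.955 ± 0.00624 with faces (n = 5) and 0.933 ± 0.0359 with patterns (n = 4; exact permutation test, p = 0.103, adjusted p = 0.309). Among the wasps other than F17 it was 0.957 ± 0.00426 with faces (n = 5) and 0.951 ± 0.00460 with patterns (n = 3; exact permutation test, p = 0.143, adjusted p = 0.343). On the first principal component, which held 42.9% of the variance, F17 scored -210, while F25, F29, F35, F42 and F55 scored 23.3, 18.9, 6.85, 13.0 and 22.8, and F3, F34 and F52 scored 51.9, 38.4 and 34.9. The 3 other pattern-trained wasps thus lay at the end farthest from F17, and the face-trained wasps lay between. The difference of group means was not detectable on the first component (exact permutation test, two-sided, p = 0.897, adjusted p = 0.911) or the second (exact permutation test, two-sided, p = 0.429, adjusted p = 0.572). Without F17 the first component held 30.3% of the variance and ran from F52 at -75.5 and F25 at -62.0 to F34 at 52.4 and F42 at 85.1, with both trainings at each end. Neither of the first 2 components then separated the groups (exact permutation tests, two-sided, p = 0.411 and 0.268, adjusted p = 0.572 and 0.536). The third component, with 14.4% of the variance, was not tested. On it F25, F29, F35, F42 and F55 scored -44.1, 14.5, -34.9, -23.2 and -13, and F3, F34 and F52 scored 74.4, 33.9 and -7.65. The groups overlapped there through F29 and F52.

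**Figure D1:**
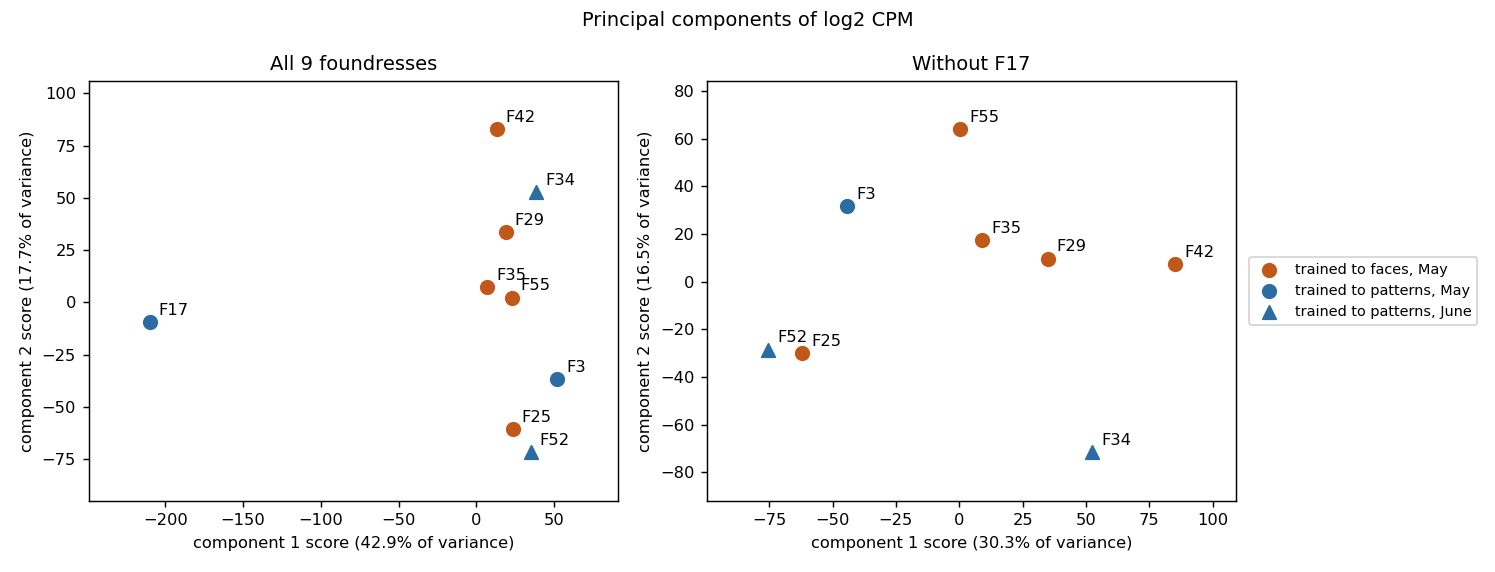
Scores of each foundress on the first 2 principal components of log2 CPM, for all 9 wasps (left) and without F17 (right); colour gives the training, circles May and triangles June. F17 lies alone at -210 on the first component, and without it wasps of both trainings lie at each end.

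No contig passed a false discovery rate (FDR) of 0.05 between face-trained and pattern-trained foundresses when these 9 libraries were fitted on their own. In edgeR's quasi-likelihood test, 0 of 57507 contigs (0%) passed with Benjamini-Hochberg adjustment over all of them, and the lowest adjusted p was 1.00. An unadjusted value under 0.05 was reached by 2030 contigs, 3.53% of those tested. This is less than the share of 0.05 that an even spread of p would give. Of these contigs, 726 (1.26%) were higher and 1304 (2.27%) lower with faces. Limma-voom also called 0. DESeq2 called 3 contigs, all lower with faces, of 57391 with an adjusted p. One was PfusTSAr1.0-101311, and the others were the neighbours PfusTSAr1.0-041590 and PfusTSAr1.0-041589, the last named after its values were seen.

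Among the contigs under 0.05, the median log2 fold change was 0.57 on the higher side and -0.80 on the lower, and 79 higher and 350 lower contigs differed over 2-fold. The excess on the lower side depended on the scaling. With edgeR's TMM scaling 64.2% of these contigs were lower with faces, with DESeq2 size factors 66.7%, and with library totals alone 43.1%, while the median log2 fold change of all contigs was -0.03, -0.04 and 0.04. The 726 higher contigs stood in 672 runs of consecutive identifiers and the 1304 lower ones in 1136, so most were not blocks of neighbours.

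Every wasp of one training lay on 1 side of every wasp of the other in 789 contigs, 1.37% of those tested. Of these, 448 (0.779%) were higher and 341 (0.593%) lower with faces, and 16 of the higher and 61 of the lower differed over 2-fold. Over all 157691 contigs, 68 had at least 1 count in each face-trained wasp and 0 in each pattern-trained wasp, and 42 had the opposite. Without F17 these numbers were 141 and 179, so their order turned. With or without F17, 0 contigs on either side reached 10 counts in every wasp of the group that had them.

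**Figure D2:**
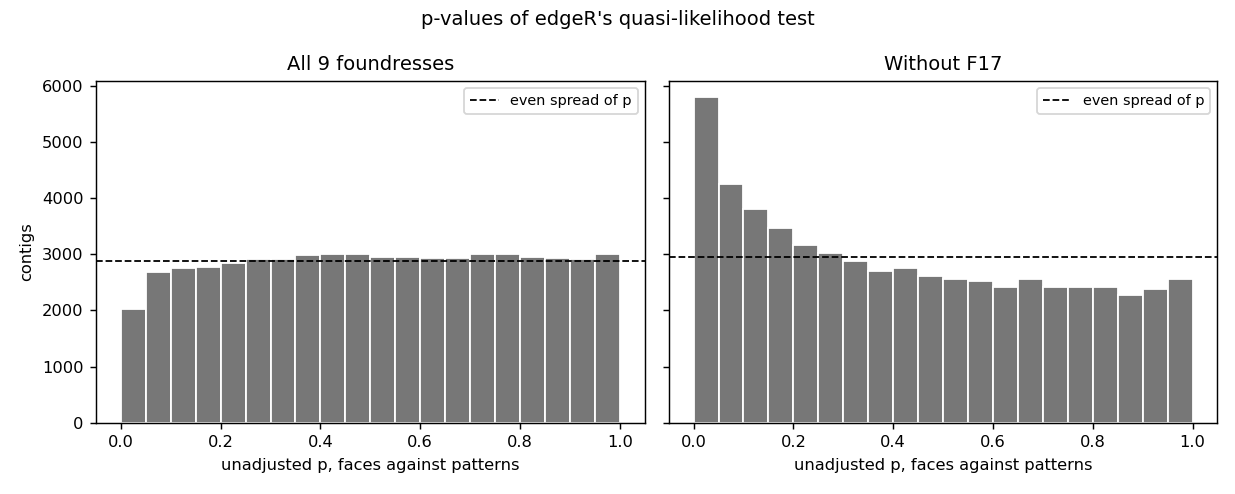
Number of contigs by unadjusted value in edgeR's test of faces against patterns, in steps of 0.05, for all 9 foundresses (left) and without F17 (right); the dashed line is an even spread. The lowest step holds 2030 contigs with F17, below the line, and 5796 without it, above the line.

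The contigs described singly are, in each fit, the 2 higher and the 2 lower with faces that had the smallest p among those with a mean of at least 2 CPM and groups that did not overlap. None of them passed the FDR in edgeR in those fits. PfusTSAr1.0-034626 stood at 4.50, 5.32, 4.73, 5.59 and 5.08 CPM in face-trained F25, F29, F35, F42 and F55, against 2.50, 3.58, 3.02 and 2.48 CPM in pattern-trained F17, F3, F34 and F52. That the groups did not overlap was required by the choice, and the means were 5.04 ± 0.440 CPM (n = 5) and 2.89 ± 0.520 CPM (n = 4). Its log2 fold change was 0.82 (SE 0.20, adjusted p = 1.00 in edgeR). Worker means lay between, at 3.85 ± 0.490 CPM (n = 4) on conspecific and 4.00 ± 0.368 CPM (n = 4) on allospecific nests.

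PfusTSAr1.0-055868 stood at 15.5, 20.3, 19.8, 21.6 and 20.7 CPM in F25, F29, F35, F42 and F55, against 9.68, 14.7, 13.6 and 8.61 CPM in F17, F3, F34 and F52. The gap between the groups was narrow, 15.5 CPM in F25 against 14.7 CPM in F3, and both of these wasps are from May. The log2 fold change was 0.76 (SE 0.19, adjusted p = 1.00 in edgeR). Workers ran from 12.4 to 20.3 CPM and so covered both foundress groups in part.

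On the lower side, PfusTSAr1.0-101311 stood at 15.9, 16.1, 15.9, 16.4 and 17.4 CPM in F25, F29, F35, F42 and F55, against 38.5, 39.6, 25.6 and 26.7 CPM in F17, F3, F34 and F52. The face-trained wasps lay close together, and among the pattern-trained wasps the May pair was above the June pair. The log2 fold change was -0.99 (SE 0.17), with an adjusted p of 1.00 in edgeR, 0.00332 in DESeq2 and 0.00332 to 1.00 over its 21 alternatives. Within May alone the log2 fold change was -1.25 (SE 0.15, adjusted p = 0.289 in edgeR). Workers ran from 10.4 to 27.7 CPM, across both foundress groups.

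PfusTSAr1.0-041590 stood at 4.71, 3.65, 3.96, 3.93 and 2.96 CPM in F25, F29, F35, F42 and F55, against 9.01, 5.43, 10.1 and 8.48 CPM in F17, F3, F34 and F52. F3 came nearest to the face-trained wasps. The log2 fold change was -1.11 (SE 0.22), with an adjusted p of 1.00 in edgeR, 0.0333 in DESeq2 and 0.0333 to 1.00 over its 21 alternatives. Its neighbour PfusTSAr1.0-041589 was the only one of 6 tested contigs within 5 identifiers that was also under an unadjusted 0.05 on the lower side, and reads shared by the pair cannot be parted from the counts.

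Leaving F17 out moved many more contigs under an unadjusted 0.05 but brought 0 past the FDR in edgeR. With 5 face-trained and 3 pattern-trained wasps, 0 of 58962 contigs (0%) passed, with a lowest adjusted p of 0.116, and 5796 contigs, 9.83%, were under 0.05. Of these, 2398 (4.07%) were higher and 3398 (5.76%) lower with faces, with median log2 fold changes of 0.41 and -0.54. The common biological coefficient of variation was 0.222 without F17 and 0.299 with it. Limma-voom again called 0, while DESeq2 called 216 of 31495 contigs with an adjusted p, 85 of them higher with faces. Groups did not overlap in 4375 contigs (7.42%), 2153 (3.65%) higher and 2222 (3.77%) lower with faces. Here 1 of 56 divisions is a share of 0.0179 in a given direction. F17 was left out with its profile known and contigs are not independent, so the shares are a description.

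Without F17, contigs lower with faces outnumbered the higher ones at low abundance, and the reverse held at high abundance. Under 2 CPM, 246 contigs under the unadjusted 0.05 were higher and 770 lower with faces, of 16685 tested. From 2 to 8 CPM these numbers were 592 and 1135 of 19763, and from 8 to 32 CPM 1002 and 1164 of 16822. From 32 to 128 CPM, 485 were higher and 286 lower of 4896, and over 128 CPM, 73 and 43 of 796. The share under 0.05 in these classes was 6.09%, 8.74%, 12.9%, 15.7% and 14.6%. The order under 2 CPM and that over 32 CPM held with TMM, with DESeq2 size factors and with library totals. Over 32 CPM, the higher and lower contigs numbered 558 and 329, 597 and 313, and 377 and 276 in these scalings. With all 9 wasps the same class of over 32 CPM had 99 higher and 116 lower with TMM, and 149 higher and 75 lower with library totals. Of the contigs tested in both fits, 1155 were under 0.05 in both, 56.9% of those with all 9 wasps and 20.3% of those without F17. The fits share 8 wasps, so this overlap is a description.

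PfusTSAr1.0-066155 had the smallest p of all contigs without F17. It stood at 4.42, 3.29, 4.02, 6.14 and 3.97 CPM in F25, F29, F35, F42 and F55, against 0.494, 0.663 and 0.743 CPM in F3, F34 and F52, which is 4, 9 and 12 counts. F17 had 14.2 CPM, the highest of all 17 wasps, so the pattern-trained wasps held both the lowest and the highest level of the series. Without F17 the log2 fold change was 2.72 (SE 0.29), with an adjusted p of 0.116 in edgeR, and with F17 it was 0.12 (SE 0.80, adjusted p = 1.00). DESeq2 gave no adjusted p for it. Over its 18 alternatives adjusted p ran from 1.09e-11, in edgeR with no filter on low counts, to 0.669. Workers ran from 1.08 to 3.40 CPM, over the 3 low foundresses and under all face-trained ones except F29.

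PfusTSAr1.0-040972, also higher with faces, stood at 48.7, 52.5, 59.3, 56.5 and 53.7 CPM in F25, F29, F35, F42 and F55, against 32.5, 34.4 and 28.5 CPM in F3, F34 and F52. F17 lay above every face-trained wasp, at 60.3 CPM. The log2 fold change was 0.76 (SE 0.11, adjusted p = 0.394) without F17 and 0.48 (SE 0.21, adjusted p = 1.00) with it in edgeR. Workers, at 39.1 to 53.7 CPM, were all above the 3 pattern-trained wasps other than F17.

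On the lower side, PfusTSAr1.0-098373 stood at 8.78, 6.05, 5.15, 7.56 and 5.60 CPM in F25, F29, F35, F42 and F55, against 16.2, 12.5 and 17.9 CPM in F3, F34 and F52, while F17 had 0.918 CPM, from 11 counts. F17 was again past the face-trained wasps, on the side away from its own group. The log2 fold change was -1.24 (SE 0.19, adjusted p = 0.394) without F17 and -0.84 (SE 0.53, adjusted p = 1.00) with it in edgeR. All 5 tested contigs within 5 identifiers were also lower with faces, with log2 fold changes of -0.96 to -0.56. In this fit 64.4% of all adjacent pairs of contigs had the same direction. Around PfusTSAr1.0-066155, PfusTSAr1.0-040972 and PfusTSAr1.0-043367, 3 of 8, 5 of 10 and 7 of 9 tested neighbours shared the direction of the named contig. Workers had a median of 18.8 CPM, and 7 of the 8 were above every face-trained foundress.

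PfusTSAr1.0-043367 stood at 12.9, 9.03, 9.64, 7.50 and 8.20 CPM in F25, F29, F35, F42 and F55, against 16.8, 21.4 and 24.5 CPM in F3, F34 and F52, and at 5.84 CPM in F17. The log2 fold change was -1.16 (SE 0.18, adjusted p = 0.394) without F17 and -0.86 (SE 0.33, adjusted p = 1.00) with it in edgeR. In DESeq2 without F17 the last 3 contigs passed, with adjusted p of 2.05e-05, 0.00028 and 0.00028, and over their 19 alternatives adjusted p ran from 2.05e-05, 2.68e-07 and 2.64e-07 up to 0.887 in each.

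**Figure D3:**
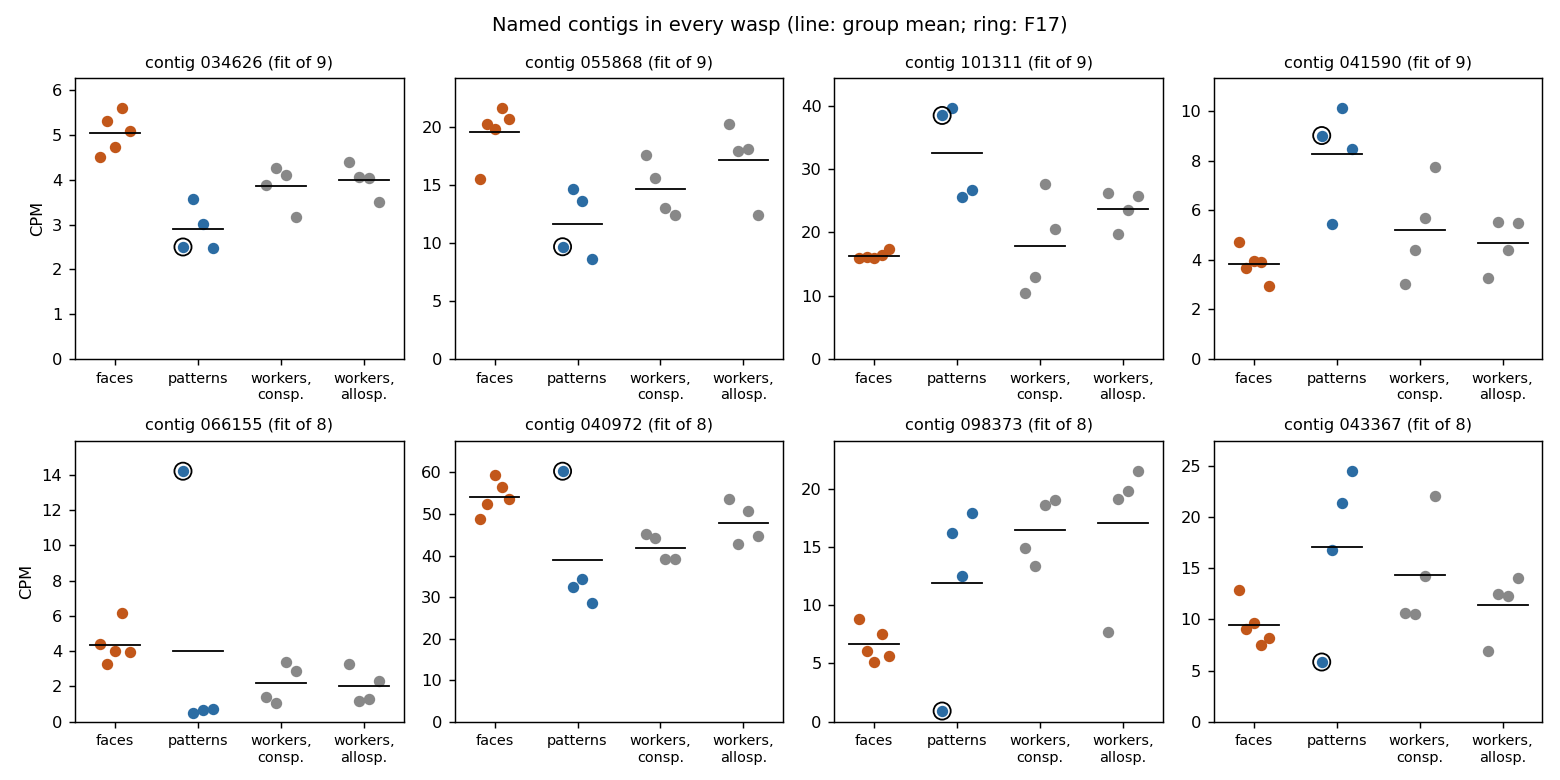
CPM of the 8 contigs in each wasp, with the group mean as a line and F17 ringed; face-trained foundresses are on the left, pattern-trained next and the 2 worker groups in grey. The upper 4 contigs were chosen with F17 among the wasps that must not overlap and the lower 4 without it; in the lower 4 it lies beyond every face-trained wasp.

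In all 4 contigs named from the fit without it, F17 lay beyond the face-trained wasps. This also held for most contigs under an unadjusted 0.05 in that fit. F17 had no part in choosing these contigs. The choice took contigs at which F3, F34 and F52 lay far from the face-trained wasps. That by itself raises the share on the face side for a pattern-trained wasp left out. The shares below are therefore a description. Of the 5796 contigs under 0.05 without F17, F17 was nearer to the face-trained mean than to that of F3, F34 and F52 in 4717 (81.4%), and beyond every face-trained wasp in 3590 (61.9%). The share on the face side was 78.3% of the contigs higher and 83.6% of those lower with faces. Of the other 53166 contigs, F17 was on the face side in 61.2% and beyond every face-trained wasp in 41.4%. Those contigs were not chosen in that way, so their shares are no baseline for the 5796. F17 also had the fewest contigs detected at equal depth and a TMM scaling factor of 0.817, against 0.946 to 1.14 in the other 8. The part of these in its position was not tested.

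The same look-up was made for each wasp in turn, at the contigs whose groups did not overlap among the other 8. The held-out wasp was placed on one side or the other of the midpoint of the gap, on the scale of log2(CPM + 0.1). Face-trained wasps lay on the face side in 41.8% of 1614 contigs for F25, 55.7% of 1263 for F29, 66.8% of 1091 for F35, 58.6% of 1237 for F42 and 58.6% of 1209 for F55. Pattern-trained wasps lay there in 83.2% of 4298 contigs for F17, 64.4% of 1841 for F3, 71.4% of 2306 for F34 and 55.5% of 1559 for F52. F17 had the highest share among the pattern-trained wasps, and F25 the lowest among the face-trained ones. A held-out face-trained wasp was set against 4 wasps of each training and a held-out pattern-trained wasp against 5 and 3, which by itself raises the share on the face side for the pattern-trained wasps, so shares of the 2 groups were not compared. The contigs chosen for different wasps overlap and neighbouring contigs are not independent, so these shares are a description without a test.

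**Figure D4:**
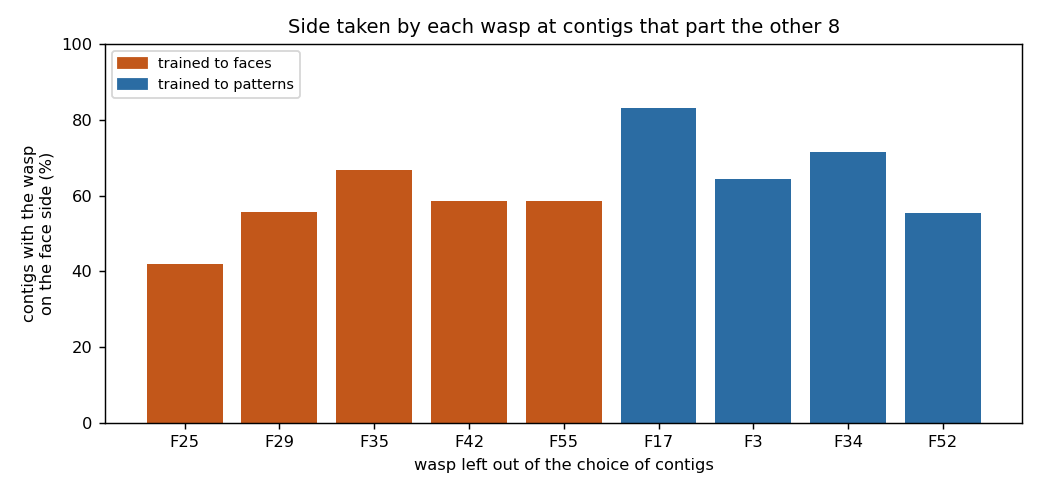
Share of contigs at which each held-out foundress lay on the face side, among contigs whose groups did not overlap in the other 8; orange bars are face-trained wasps, set against 4 of each training, and blue bars pattern-trained wasps, set against 5 face-trained and 3 pattern-trained. Among the blue bars F17 is highest, at 83.2%, and among the orange bars F25 is lowest, at 41.8%.

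F17 and the other pattern-trained wasps also lay at opposite ends in how many contigs were detected. With every library scaled down to 7694420 counts, 88314, 86111, 86705, 87616 and 90043 contigs had at least 1 count in F25, F29, F35, F42 and F55, against 82304, 92188, 91537 and 92365 in F17, F3, F34 and F52. F17 had the fewest of all, while the other 3 pattern-trained wasps had more than any face-trained wasp. At full depth F3 had the fewest, 92188, followed by F17 with 93970, and the difference of faces minus patterns was 2940 in place of -1840. The means were 87758 ± 1530 with faces (n = 5) and 89598 ± 4880 with patterns (n = 4), which did not differ detectably (exact permutation test, two-sided, p = 0.429, adjusted p = 0.572). Without F17 the pattern mean was 92030 ± 436 (n = 3), and the difference had the smallest value that 56 divisions allow and an adjusted value above 0.05 (exact permutation test, two-sided, p = 0.0179, adjusted p = 0.214). The 10 most abundant contigs took 9.40 ± 2.83% of counts with faces (n = 5) and 10.2 ± 4.49% with patterns (n = 4; exact permutation test, two-sided, p = 0.754, adjusted p = 0.905), and 9.60 ± 5.26% with patterns when F17 was left out (n = 3; exact permutation test, p = 0.911, adjusted p = 0.911).

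Spread within the groups also turned on F17. Per contig, the median SD of log2 CPM was 0.258 among face-trained wasps and 0.478 among pattern-trained wasps, and the pattern group was the wider in 78.8% of contigs. With F17 left out the pattern-trained median was 0.265, and that group was the wider in 52% of contigs.

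The intervals around the fold changes show what these wasps could resolve. With all 9 foundresses, the median 95% interval reached 0.602 on the log2 scale to either side of the estimate, or 1.52-fold. The whole interval lay within 2-fold either way for 38991 contigs (67.8%) and within 4-fold for 56240 (97.8%). This share depended on the mean level. It was 31.2% below 2 CPM and 72.8% between 2 and 8 CPM. Between 8 and 32 CPM it was 88.2%, between 32 and 128 CPM 87.7%, and above 128 CPM 81.9%. Without F17 the median interval reached 0.483, or 1.40-fold, and the share within 2-fold was 72.7% over all contigs, 31.9% under 2 CPM and 96.1% from 32 to 128 CPM. These intervals hold for 1 contig at a time and are not adjusted over contigs. The lack of calls therefore does not show that the 2 trainings gave equal levels.

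**Figure D5:**
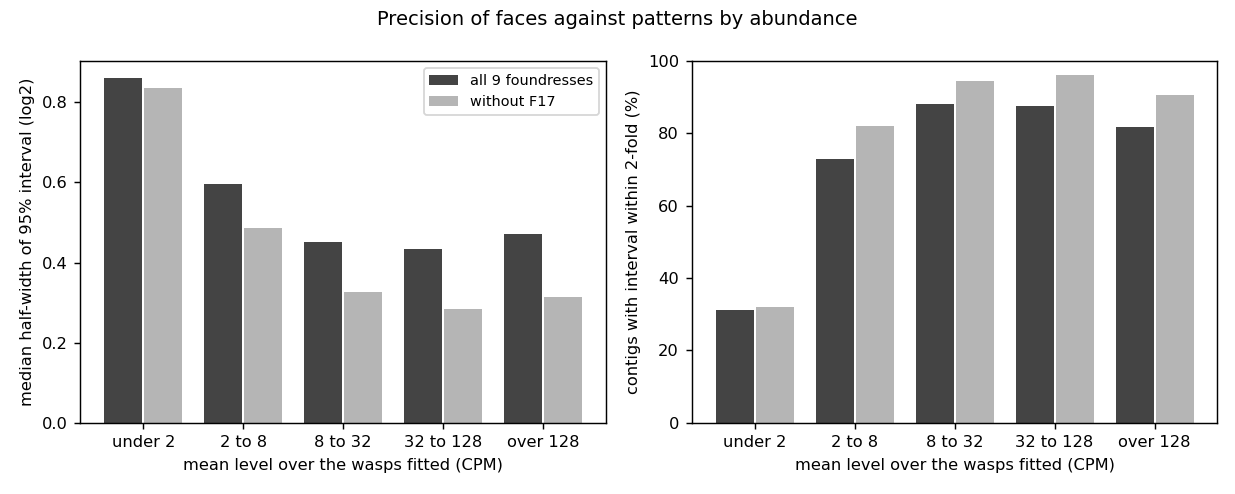
Median reach of the 95% interval to either side of the log2 fold change (left) and percent of contigs whose interval lay within 2-fold (right), by mean CPM; dark bars are all 9 foundresses and light bars those without F17. Intervals were widest under 2 CPM, where 31.2% and 31.9% of contigs lay within 2-fold.

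Month of collection varied only among the pattern-trained wasps, so it could be parted from training only through F17 and F3 against F34 and F52. In a fit with separate means for face-trained May, pattern-trained May and pattern-trained June wasps, 0 contigs (0%) passed the FDR for faces minus patterns within May, with 5434 (9.45%) under an unadjusted 0.05, of which 72.0% were lower with faces. For June minus May among pattern-trained wasps 0 (0%) passed and 5250 (9.13%) were under 0.05. The 2 contrasts share F17 and F3. Without F3, F17 alone stood for May, and calls in these contrasts rest on the assumption that a lone wasp varies like the others. Without F17, F3 alone stood for May, and 2 contigs (0.00339%) passed in each contrast, with 3174 (5.38%) and 1996 (3.39%) under 0.05. Training within May therefore rested on 2 wasps that lay far apart, with a correlation of 0.856, the lowest of all pairs.

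The 2 contigs that passed without F17, named here after their values were seen, were low in F3 alone. PfusTSAr1.0-112961 had 2.84 CPM in F3, from 23 counts, against 26.1 to 30.4 CPM in the face-trained wasps, 27.8 CPM in F34 and 26.8 CPM in F52, 45.8 CPM in F17 and 21.1 to 29.3 CPM in the 8 workers. Its neighbour PfusTSAr1.0-112962 had 1.73 CPM in F3, from 14 counts, against 17.2 to 19.7 CPM in the face-trained wasps, 16.1 and 16.0 CPM in F34 and F52, 29.9 CPM in F17 and 14.5 to 19.7 CPM in workers. In edgeR their log2 fold changes of faces minus patterns within May, without F17, were 3.30 (SE 0.22) and 3.39 (SE 0.24), both with an adjusted p of 0.00267. With the 9 wasps fitted by training alone they were 0.12 (SE 0.49) and 0.18 (SE 0.48), with adjusted p of 1.00. The low values thus come from 1 wasp.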

How the data were processed

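Per the labels' protocols, total RNA of single brains was extracted with an RNeasy kit and 1 µg made into TruSeq libraries. Trimmomatic 0.32, Bowtie2 and eXpress were used, per the submitters' processing notes, which give no roles or order. The values deposited are read counts per assembled contig, all whole numbers, with no sign of scaling in the values; how reads matching several contigs were treated is not given in the sources used here.

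The tests across contigs used edgeR 4.0.16 in R 4.3.3, with its expression filter by group, TMM scaling and quasi-likelihood F-test. P-values were two-sided and adjusted by Benjamini and Hochberg's method over every contig kept. These contigs held 99.2% of counts. The 9 foundresses were fitted alone (7 residual degrees of freedom) and again without F17 (6). The script was tested on simulated data. SE is the size of the log2 fold change over the square root of F. CPM values use TMM over all 17 libraries, and log2 CPM a prior count of 2. Contigs named singly followed the rule given with them, 1 per run of consecutive identifiers. Equal depth is the expected number of contigs when sampling without replacement. Single values per wasp were compared by exact permutation tests. The wasps are separate animals, and every pair within a group differed by more than sampling noise (lowest chi-square per degree of freedom 7.19). Members, fits and rules were chosen with earlier results of these data known. Alternatives included DESeq2 1.42.0 and limma 3.58.1.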

Additional observations from a re-analysis of the deposited data

Results flagged for a closer look

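Library values and the named contigs gave 28 sets of values, 1 per training group, and Dixon's criterion marked a distant wasp in 4 of them. About 1.4 would be marked by chance in sets chosen without regard to their values, which 3 of the marked sets were not: F17 was already known to stand apart, and PfusTSAr1.0-066155 was named from a fit without F17 that favours close values in F3, F34 and F52. All 4 were in pattern-trained foundresses. F3 had a total of 7.69 M counts, against 14.9 to 15.8 M in the others. F17 had 82304 contigs detected at equal depth, against 91537 to 92365, and a median correlation of 0.879 with the other foundresses, against 0.946 to 0.956. PfusTSAr1.0-066155 stood at 14.2 CPM in F17 and at 0.494 to 0.743 CPM in F3, F34 and F52.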

How the results depend on the processing

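Leaving out F17 with F3 was chosen after the data were seen. With all 9 foundresses, 0 contigs passed the FDR of 0.05 in edgeR or in limma-voom, with either other scaling, with 1 CPM in 4 libraries or with robust dispersions. The same held with workers in the fit, with month, in May wasps only, at an FDR of 0.1 and without each wasp. DESeq2 called 3 of 57391 contigs, and with no filter on low counts 29 of 148413 passed (4 of them higher with faces). The count at an unadjusted 0.05 was 2030 of 57507 contigs tested. It was 6185 of 57507 with library quality weights in limma-voom and 6780 of 148413 with no filter. With workers in the fit it was 4356 of 61002, with month 5434 of 57507 and in May wasps only 5201 of 60978. It was 5796 of 58962 without F17 and 4786 of 60977 without F17 and F3. Leaving out 1 wasp gave 1306 (F35) to 5796 (F17), with 3749 without F34. Without F17, the 0 calls became 216 in DESeq2, 631 with no filter, 2 with month and 3 in May wasps only, where F3 alone stands for patterns, and the count of 5796 became 10302 with no filter, 3174 with month and 3782 in May wasps only. Leaving out 1 wasp gave 0 to 16493 calls for training within May, with 3174 to 24046 at 0.05, and 0 to 16748 for June against May, with 1996 (F17) to 24149 (F3) and 2097 without F34. Causes were not tested, except that the settings for May without F17 or F3 rest on a lone wasp by construction.

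Of 159 alternative values with an adjusted p for the 8 contigs named by rule, 150 kept their side of the FDR. The other 9 passed it (5 in DESeq2, 4 with no filter), and 0 of the 159 changed direction. The choice of these contigs required groups that did not overlap in the wasps fitted. A kept direction was thus largely fixed by that choice and is no support for them. For the 4 contigs named without F17, all these alternatives leave F17 out. Putting F17 back turned the log2 fold change of PfusTSAr1.0-066155 within May to -0.78, against 3.12 without F17. The other contigs named from that fit kept their direction within May. The difference in contigs detected, -1840 at equal depth, was 2940 at full depth. That in the share of the top 10 contigs, -0.847 percentage points, ran from -2.10 to 0.963 without 1 wasp, and that on component 1, 38.2, ran from -35.9 (without F17, where the component is another one) to 64.9. Intervals were widest for contigs under 2 CPM. No paired analysis was possible because the labels record no pairs among these wasps.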
